A study of Mus musculus with 8 samples.

Results

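The array used here carried 16181 60-base probes for intergenic transcripts, each named by a genome interval and a strand, and 1148 of them were not well above background in total RNA of mouse embryonic stem (ES) cells but were well above it in total RNA of neural precursors (NPC/Neu) after 10 days of differentiation in vitro. These gained probes belonged to 785 of the 4607 interval strands on the array. The flag "well above background" is set by the scanner software from a spot's signal and its local background. The members were chosen by these flags on the ES and NPC/Neu total RNA arrays, so the rise from ES to NPC/Neu is a description and not a result.

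The 8 arrays, all on 1 slide, measured E14Tg2A cells, an ES line of strain 129/Ola, at 4 stages. ES cells were grown with serum and LIF (day 0), ELA were floating aggregates in a chemically defined medium with N2 and B27 (day 2), NPC were neural progenitor cells (day 6), and NPC/Neu were neural precursors carried on without B27 (day 10). At each stage 1 array held total RNA and 1 held Ago–RNA, the RNA recovered with Argonaute proteins from a cytosolic extract by a pan-Argonaute antibody. Each array held RNA pooled from 3 independent experiments, so there was 1 array per condition, no replicate error and no test across cultures. The difference Ago–RNA minus total RNA (E, log2) therefore compares 2 different extracts, and association with Argonaute and presence in the cytosol cannot be told apart in it. The ES and NPC arrays lay in one row of the slide and the ELA and NPC/Neu arrays in the other, so row and stage cannot be fully told apart.

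Signals are normalized log2 values. In the 399 probes printed in 10 spots each, the SD of a difference between NPC/Neu and ES spots was 0.26 and that of E in NPC/Neu was 0.27, which covers spot error only. In total RNA, all 7 naive pluripotency markers were at least 2-fold lower in NPC/Neu than in ES, though all 7 were still detected. All 6 neural progenitor markers and 6 of 7 neuron markers were at least 2-fold higher, and Neurod1 differed by -0.14. Of 3 primed epiblast markers, Eomes was higher by 2.73 (log2), Otx2 differed by 0.44 and Fgf5 by -4.08. Of 12 markers of other cell types, 3 were at least 2-fold higher, namely T (log2 2.12), Foxa2 (3.35) and Olig2 (2.83). Their part in the results was not tested.

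Long noncoding RNAs are transcribed from many intervals between coding genes. In the developing nervous system a number of them lie beside genes for transcription factors, overlap their antisense strand or host microRNAs, and many remain in the nucleus. Argonaute proteins bind small RNAs such as microRNAs and, through them, target transcripts in the cytoplasm. A probe against an interval on this array need not report an independent noncoding RNA. By the GENCODE annotation of build NCBI37 (mm9), 650 members (56.6%) lay in no gene, 192 (16.7%) lay in an intron of a gene on the same strand, and 145 (12.6%) lay in an exon on the same strand. Over all intergenic probes these shares were 58.0%, 11.9% and 10.5%. Of the 145 exonic members, 66 were in protein-coding genes and 64 in annotated lincRNAs.

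The probe sequences below are those on which the results turn. The first 4 come from bright members beside 2610017I09Rik, beside A130050O07Rik, in a Kalrn intron and beside Zfp462. The fifth, in an Hmbox1 intron, is among the members with the highest E. The last 4 hold bases of the hexamer repeat described further on, printed in capitals. All are written 5′ to 3′ as the file gives them. Of the 1148 members, 1133 matched the mm9 genome at the file's own coordinates, all on the strand in the name, and 1108 had exactly 1 perfect copy in the genome.
chr1:42705119-42705178, reverse strand: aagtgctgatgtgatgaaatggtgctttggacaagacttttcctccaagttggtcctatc
chr1:139822744-139822803, forward strand: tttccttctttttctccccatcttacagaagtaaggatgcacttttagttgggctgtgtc
chr16:34559747-34559806, reverse strand: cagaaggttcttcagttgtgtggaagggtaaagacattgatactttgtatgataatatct
chr4:54940868-54940927, reverse strand: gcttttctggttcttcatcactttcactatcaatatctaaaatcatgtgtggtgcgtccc
chr14:65432792-65432851, reverse strand: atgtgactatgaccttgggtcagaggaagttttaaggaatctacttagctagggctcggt
chr8:49911837-49911896, reverse strand: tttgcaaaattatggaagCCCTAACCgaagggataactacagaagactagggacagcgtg
chr15:73231851-73231910, forward strand: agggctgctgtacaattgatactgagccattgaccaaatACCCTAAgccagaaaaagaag
chr10:8662780-8662839, reverse strand: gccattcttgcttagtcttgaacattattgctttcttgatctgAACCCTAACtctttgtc
chr1:77820157-77820216, forward strand: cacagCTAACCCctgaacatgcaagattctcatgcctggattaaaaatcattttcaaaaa

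Gain was about as frequent as among the other probes on the array. The members made up 7.09% of all intergenic probes and 13.1% of the 8769 intergenic probes that were not well above background in ES. Among the 39500 other probes, mostly for annotated genes, 2186 (5.53%) met the same flags, or 16% of those not well above background in ES. Loss was seen for 1518 intergenic probes (9.38%). Because the ES side was below background, only a lower bound of the rise could be given, against the higher of the probe's own ES signal and the lowest ES signal still well above background. The bound had a median of 1.48-fold and reached at least 2-fold for 328 members (28.6%) and 8-fold for 58. With the scanner software's processed intensities 719 members reached 2-fold by 75th percentile scaling and 735 by quantile normalization. Among the other gained probes 892 (40.8%) reached 2-fold, to be set beside the 28.6% and not beside the processed-intensity counts.

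Most members were dim. Their NPC/Neu total RNA signal had a median of 7.36, with quartiles of 7.13 and 7.92, against 6.71 in ES, and 691 of 1148 were below 7.5. The 2 dimmest members, in chr10:93774693-93893616 (6.79) and chr16:22718344-22725594 (6.82), had no higher signal than in ES (6.89 and 6.83). The 2 brightest intergenic probes that missed only the NPC/Neu flag reached 7.19 and 7.16, so that signals on the 2 sides of the rule overlapped. Gain of a probe was also not gain of a whole interval. In 511 of 785 interval strands (65.1%) another probe was already well above background in ES, in 547 only 1 probe was gained, and in 274 no probe was detected in ES.

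The flags on the ELA and NPC total RNA arrays, which the rule did not use, placed the first signal of most members at NPC. It was present from NPC on for 660 members (57.5%), only in NPC/Neu for 334 (29.1%), from ELA on for 128 (11.1%), and on either side of NPC but not there for 26 (2.26%). The other gained probes were spread alike, with 56.4%, 26.2%, 15.3% and 2.06%. Members seen from ELA on had the highest median NPC/Neu signal, 8.19, against 7.44 for those seen from NPC on and 7.16 for those seen only in NPC/Neu. The ELA array flagged fewer probes in general. Of all intergenic probes, 37.0% were well above background in ELA total RNA and 45.7% in NPC. Of the intergenic probes detected in both ES and NPC/Neu, 84.8% were flagged in ELA and 97.2% in NPC. The part of this array difference in the counts was not tested. The order of these counts also depended on the flag. With the less strict flag of a signal significantly above background, 756 of the same members were already seen from ELA on. With the binding threshold T1 (log2 7.83) at each stage, 312 members passed it in NPC/Neu, of which 155 did so from NPC on, 145 only in NPC/Neu and 8 from ELA on.

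**Figure D1:**
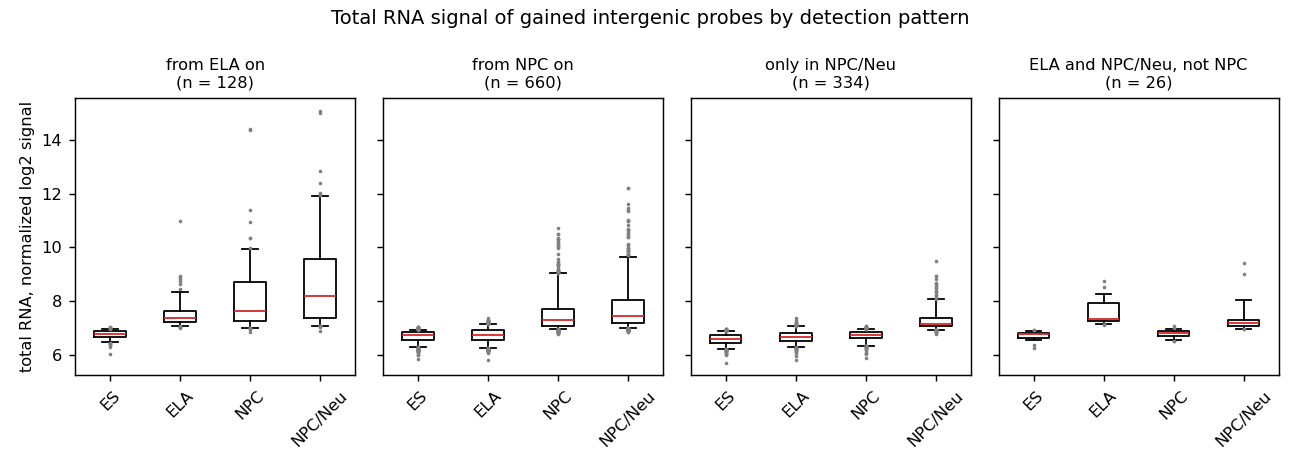
Normalized log2 total RNA signal (vertical axis) of the gained intergenic probes at the 4 stages (horizontal axis), in 4 panels by the stages at which they were well above background. Boxes show quartiles with the median as a line, whiskers the 5th and 95th percentiles and dots single probes, and the ES boxes all lie near 6.7 while the largest group (n = 660) first moves up at NPC.

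By size, 34 members were at least 2-fold higher in ELA than in ES (2.97% of those measured) and 1 was lower, where 3.07% of all probes were higher and 3.21% lower. From ELA to NPC 204 members (17.9%) were at least 2-fold higher and 10 lower, against 7.01% and 6.39% of all probes. From NPC to NPC/Neu 154 (13.4%) were higher and 7 lower, against 3.71% and 2.6%. With the processed intensities the members counted as higher were 570 or 630 from ELA to NPC and 479 or 442 from NPC to NPC/Neu, by 75th percentile or quantile scaling. The shares of all probes under those scalings are not given here, so these counts cannot be set against the percentages above. The NPC/Neu and ES arrays chose the members, so the ES to ELA and NPC to NPC/Neu shares are tied to the rule. The ELA to NPC step used neither array of the rule directly.

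The Pou3f3 neighbourhood carried the brightest members. Pou3f3, at chr1:42753991-42757052, encodes a POU-domain transcription factor of the developing brain. In the interval chr1:42689799-42749799 on the reverse strand, where 2610017I09Rik is annotated, the probe shown first above read 6.53, 7.28, 14.39 and 15.08 in total RNA over the 4 stages. The rise was at least 324-fold, most of it between ELA and NPC. On the Ago–RNA arrays the same probe read 6.56, 7.14, 13.55 and 13.98, so E was -1.10 in NPC/Neu. The adjoining probe in an exon of 2610017I09Rik gave 15.01 and 13.79 in NPC/Neu total RNA and Ago–RNA. The gene's own signal was 6.57 in ES and 15.48 in NPC/Neu. Whether these members read the transcript of that annotated gene was not tested.

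On the other side of Pou3f3 and 1876 bases from it, chr1:42758928-42771337 on the forward strand read 6.41, 6.21, 10.08 and 11.00 in total RNA of ES, ELA, NPC and NPC/Neu. Here Ago–RNA was not lower than total RNA, at 11.51 in NPC/Neu (E 0.52), and the second member of the interval gave E of 0.75. Both intervals also had members on the opposite strand. The forward members of chr1:42689799-42749799 read 9.19 and 9.07 in NPC/Neu. The second of them, at 42705151 to 42705210, overlaps 2 reverse-strand members in sequence, and whether the forward probes report a separate transcript was not tested. Pou3f3 itself read 7.04 in ES and 11.11 in NPC/Neu.

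Members in an interval of chr16:46384974-46391331 on the reverse strand lay in an exon of Pvrl3, which encodes nectin-3, a cell adhesion protein. The brightest of the 4 read 6.93, 7.37, 11.40 and 12.83 in total RNA of the 4 stages. Its Ago–RNA signal was 7.81, 8.19, 11.35 and 13.03, and E in NPC/Neu was between 0.20 and 0.68 for all 4. The gene's own signal was 9.06 in ES and 13.68 in NPC/Neu, so a gained probe here sat in a coding gene already detected in ES.

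A second kind of bright member had little signal in Ago–RNA. In chr1:139822286-139822985 on the forward strand, 1762 bases from A130050O07Rik, total RNA read 6.64, 6.65, 10.48 and 12.20, while Ago–RNA read 6.43, 6.30, 7.83 and 7.90. E in NPC/Neu was -4.29. In a Kalrn intron (chr16:34559623-34560462, reverse strand), total RNA read 6.68, 7.25, 9.59 and 12.02 and Ago–RNA 6.20, 6.31, 8.07 and 8.02. Kalrn encodes kalirin, a guanine nucleotide exchange factor of neurons, and its own signal was 7.17 in ES and 9.26 in NPC/Neu. The overlapping interval chr16:34524589-34573439 gave 3 further members with E down to -4.03.

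Beside Zfp462, a zinc finger gene, chr4:54669012-54940960 on the reverse strand read 6.34, 6.52, 9.33 and 11.39 in total RNA and 6.71, 6.45, 7.30 and 7.07 in Ago–RNA, with E of -4.33 in NPC/Neu. Mir325 is annotated inside the interval chrX:102567595-102589870 on the reverse strand. The 5 members of this interval lay in intron sequence of 5330434G04Rik and reached 11.22 in NPC/Neu total RNA. Ago–RNA of that probe was 7.37, and all 5 members had E of -3.01 or lower, 1 of them with Ago–RNA not well above background. In chr19:59498190-59531390, introns of Emx2os, which is transcribed antisense to the forebrain homeobox gene Emx2, the brightest of 5 members read 6.64, 6.68, 10.24 and 10.81 in total RNA. It read 6.82, 6.82, 8.59 and 7.95 in Ago–RNA. Emx2 moved on the same arrays from 6.57 in ES to 11.26 in NPC/Neu.

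**Figure D2:**
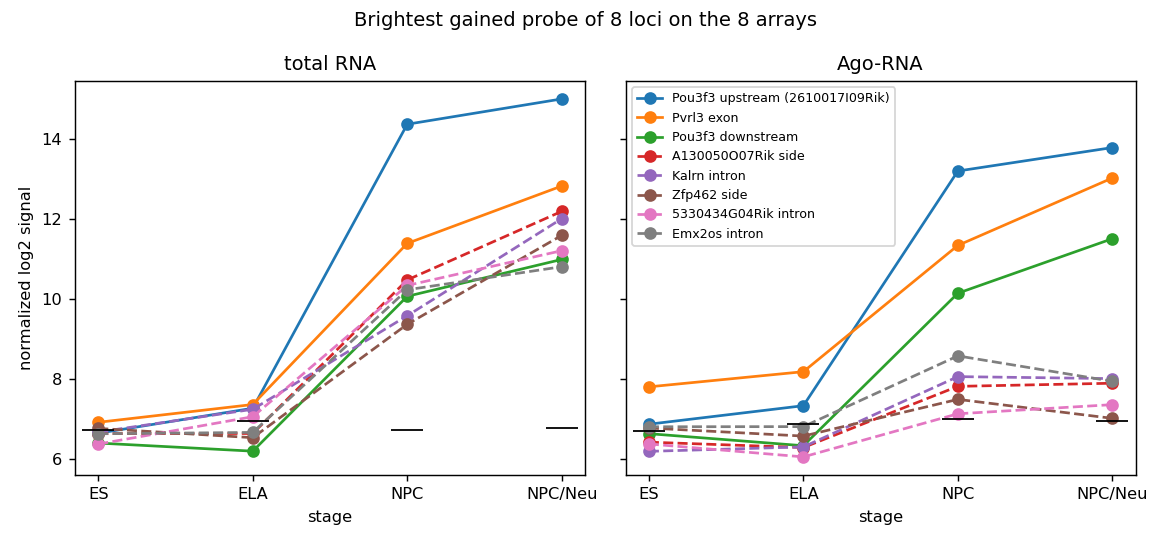
Normalized log2 signal (vertical axis) of the brightest gained probe at 8 loci over the 4 stages, in total RNA (left) and Ago–RNA (right), with 1 array per point; short black bars mark the lowest signal still well above background on each array. All 8 lines climb in total RNA. In NPC/Neu Ago–RNA the 3 solid lines (Pou3f3 upstream, in 2610017I09Rik, Pvrl3 exon, Pou3f3 downstream) reach 11.51 or more while the 5 dashed lines end at 8.02 or lower.

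These cases reflected a split over all bright members. Among the 122 members with a total RNA signal of 9 or more in NPC/Neu, from 76 interval strands, Ago–RNA was at least 2-fold lower than total RNA for 90 (73.8%), counting a probe below background in Ago–RNA at the array's lowest measured signal. Over all probes of that brightness the share was 19.5%. It was 40.6% for the 1888 bright intergenic probes detected in both ES and NPC/Neu, and 19.3% for the 393 other gained probes. At the other end, E was 0 or higher for 22 of the 122 members. This share was below that of the 1888 bright intergenic probes detected in both ES and NPC/Neu (472, or 25%). It was also below that of the 393 other gained probes (222, or 56.5%). Brightness was taken from the same total RNA array that enters E, and the members and the other gained probes were also chosen for detection on that array and not in ES, which the remaining sets were not. The part of these choices in the difference was not tested.

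On the NPC arrays, which did not enter the rule, the order was the same. Brightness was again taken from the total RNA array that enters E, and the members were those of the same rule. The shares are therefore a description and no independent support. Of 62 members with a total RNA signal of 9 or more in NPC, 36 (58.1%) were at least 2-fold lower in Ago–RNA, against 9.76% of all probes of that brightness, 25.8% of the intergenic probes detected in both ES and NPC/Neu and 8.71% of the other gained probes. The annotated position moved with E. The 21 bright members in a same-strand exon had a median E of 0.01 in NPC/Neu, and 8 were at least 2-fold lower in Ago–RNA. The 101 bright members elsewhere had a median of -2.43, with 82 at least 2-fold lower. Ago–RNA was well above background for 18 of the 21 and 60 of the 101. The rest entered both medians at no less than the array's lowest measured Ago–RNA signal, so as upper bounds of E. Of the annotated neural noncoding RNAs listed, E in NPC/Neu was -4.08 for Meg3, -2.88 for Mirg, -2.87 for Snhg11 and -2.60 for Sox2ot. It was -0.61 for Dlx6os1, -0.03 for Six3os1 and 0.99 for Peg13. The NPC/Neu total RNA signals of Dlx6os1 (8.80) and Peg13 (7.09) were below 9.

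**Figure D3:**
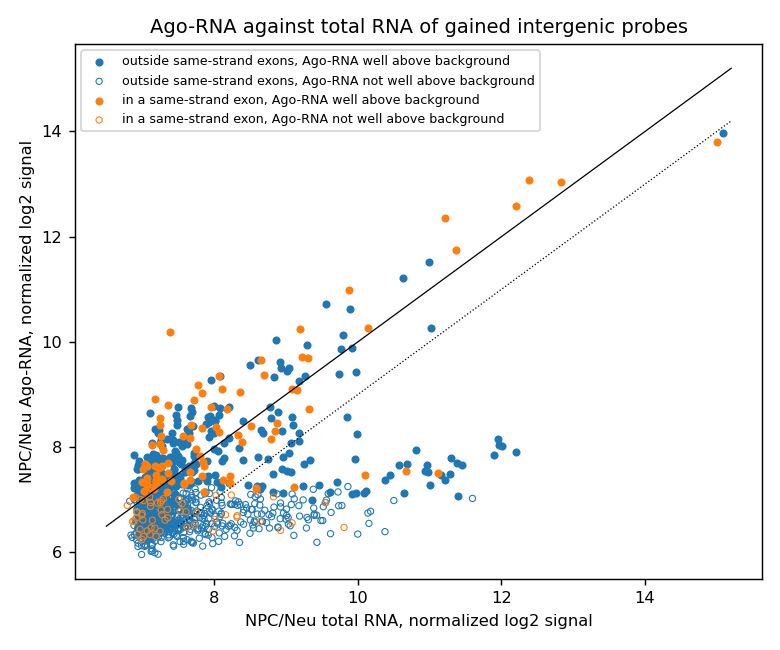
Ago–RNA against total RNA (normalized log2 signals, NPC/Neu) for each gained intergenic probe, orange for probes in a same-strand exon and blue for the rest, open where Ago–RNA was not well above background. The solid line is equality and the dotted line a 2-fold lower Ago–RNA signal; bright probes form a branch along equality, with many orange points, and a flat branch near 7 to 8 in Ago–RNA.

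Over the dim majority little can be said of Ago–RNA. Of all members, 367 (32.0%) were well above background in NPC/Neu Ago–RNA, 356 in NPC, 123 in ELA and 270 (23.5%) in ES, where total RNA was below background by the rule. Over all intergenic probes the shares were 33.4% in NPC/Neu, 34.4% in NPC, 32.3% in ELA and 43.6% in ES. Of the other gained probes, 68.8% were well above background in NPC/Neu Ago–RNA. The 270 had a median ES Ago–RNA signal of 7.13, near the lowest measured signal of 6.70. For the 365 members with a usable value on both NPC/Neu arrays the median E was 0.14, but it was -0.50 over all members and -0.42 with the processed intensities scaled to the 75th percentile, so its direction is not settled. E was -1 or lower for 56 (15.3%), where 12.5% of all measured probes were, and 1 or higher for 27 (7.40%), where 13.4% were. The first count was 109 with that scaling, and the second 71 with quantile-normalized processed intensities. Shares of all measured probes with processed intensities are not given here. The 4 highest were 2.80 and 1.45 in exons of Gm15800, 1.74 in an exon of 1600012P17Rik and 1.54 in an intron of Hmbox1, all with total RNA signals under 7.5. In chr5:121669792-121732542 (Gm15800) Ago–RNA read 8.02, 7.31, 8.09 and 10.18 over the 4 stages, against 6.87, 6.80, 6.72 and 7.38 in total RNA.

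Members lay on the reverse strand somewhat more often than the array as a whole, 630 of 1148 (54.9%) against 49.5% of all intergenic probes, and counted by interval strand 53.8% against 49.7%. For 377 member interval strands the array also had probes on the opposite strand, and in 300 of them (79.6%) that strand was detected in NPC/Neu as well. Over all detected interval strands with probes on both strands the share was 77.8%, so this was near the background. Of the 1067 intervals on the array with probes on both strands, 48 had probes gained on both. The same count for other sets of intergenic probes is not given here, so no excess can be read from the 48.

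Within 100 kb of each other, member intervals formed 140 groups of 2 or more, which also depends on where the array has probes. The same count for other intergenic probes is not given here. No excess of grouping among members can therefore be read from the 140. Some intervals lie inside a longer interval of the same group and are not separate neighbours. The largest group, chr11:69106907-69201732, held 9 intervals and 13 member probes on both strands. It lay beside Cntrob, Chd3 and Cyb5d1, and its probes were all dim (8.61 or lower). Chd3, a chromatin remodeller, moved in total RNA from 11.49 in ES to 16.05 in NPC/Neu, and Cyb5d1 from 8.26 to 8.32. The second, chr1:139713316-139913366, held 6 intervals and 16 member probes, 14 of them first seen in NPC and none before it, with a median lower bound of the rise of 2.28 (log2). Mir181a-1 and Mir181b-1 are annotated inside its longest interval, on the forward strand. In 5 of its 7 interval strands total RNA of the brightest probe was 8.83 or higher in NPC/Neu, and each of these strands was forward. The third, chr8:49853937-49915704, held 6 reverse-strand intervals and 9 member probes, up to 10.00.

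MicroRNA genes lay inside 9 member interval strands on the same strand, among them Mir325, Mir670 (chr2:94082835-94101939, up to 9.32), Mir568 (chr16:43623581-43642715, up to 8.66) and the cluster of Mir322, Mir351, Mir450, Mir503 and Mir542 (chrX:50400250-50410825, up to 7.62). The dimmest of the 9, with Mir181a-1 and Mir181b-1, reached 7.04 and had 1 member among 7 probes. The share of all interval strands on the array with a microRNA gene inside is not given here. No excess among members can therefore be read from the count of 9. Only in the X-linked Mir325 intervals were all probes members. The arrays did not measure the mature microRNAs.

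The coding genes nearest to members tended to be higher in NPC/Neu. Within 100 kb, 430 such genes were measured, and 131 (30.5%) were at least 2-fold higher in NPC/Neu than in ES and 51 (11.9%) at least 2-fold lower. Over all 22991 genes the shares were 16.6% and 16.6%, and over the 1400 genes nearest to any intergenic probe 20.9% and 19.9%. For members of log2 9 and over, 24 of 48 genes were higher and 3 lower. Some member probes lie inside these genes and may read the same transcript. For genes near a member interval that did not overlap them the shares were 27.3% higher and 13.5% lower of 297, against 20.3% and 20.7% of the 1086 genes near any intergenic interval that did not overlap them. Genes nearest to the lost intergenic probes showed the opposite split, with 14.3% higher and 27.5% lower of 509.

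**Figure D4:**
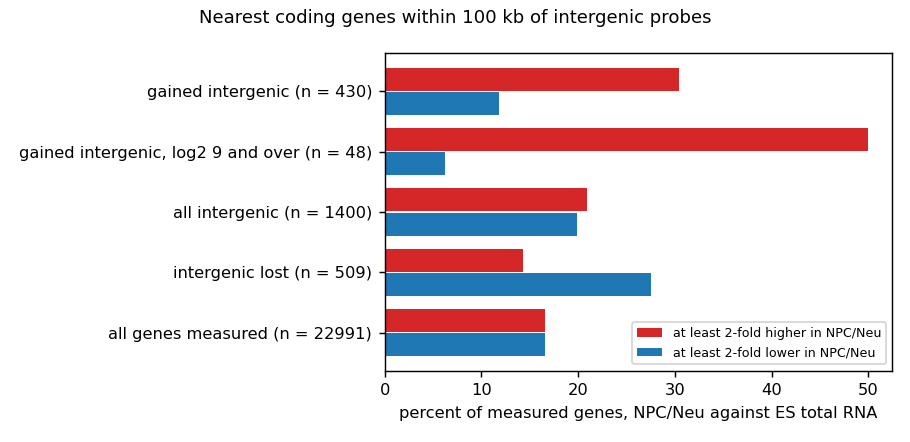
Percent of measured coding genes that were at least 2-fold higher (red) or lower (blue) in NPC/Neu than ES total RNA, for genes nearest to each set of intergenic probes within 100 kb and for all genes. Genes near gained probes are 30.5% higher and 11.9% lower, and all genes 16.6% each way.

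Some members shared a sequence feature rather than a neighbourhood. CCCTAA is the repeat of the C-rich strand of vertebrate telomeres. Probes holding its 6 bases in any of the 6 rotations, searched on the probe strand, made up 4.80% of all intergenic probes, 7.23% of members (83) and 15.6% of the bright members (19). This feature was noticed after the values had been seen. The longer the run, the larger the share gained among intergenic probes not detected in ES: 20.5% with 6 bases or more, 32.5% with 7 and 56.2% with 8 (9 of 16 probes), against 13.1% overall. Of all 3512 words of 6 bases found in at least 50 intergenic probes, these 6 rotations ranked 1 to 6 by the mean NPC to NPC/Neu difference in total RNA, from 0.51 for CCTAAC to 0.22 for AACCCT. Among the other probes 5 of the 6 ranked 1 to 5 of 4006. The 6 reverse complements of these words, rotations of TTAGGG, ranked 96 or lower among intergenic probes. The ranking used the NPC/Neu total RNA array that chose the members. A longer run holds several rotations, so the 6 ranks are not independent. Over all intergenic probes the median NPC to NPC/Neu difference was 0.05 with a rotation and -0.01 without. The shares at least 2-fold higher were 9.92% and 2.06%.

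The probe in chr8:49911596-49912196 read 6.89, 7.80, 7.18 and 10.00 in total RNA of ES, ELA, NPC and NPC/Neu, and 6.93, 7.79, 7.36 and 6.35 in Ago–RNA. The probe in chr10:8662761-8665101 read 6.59, 7.35, 6.73 and 9.43 in total RNA and 6.66, 7.92, 7.03 and 6.19 in Ago–RNA. In both, a lift in ELA on both kinds of array was followed by a jump on the NPC/Neu total RNA array alone. The brightest member seen only in NPC/Neu, in chr15:73227424-73257474 opposite a Ptk2 intron, held 7 bases of the repeat and read 6.70, 7.13, 6.74 and 9.49. Of the 3 brightest members seen only in NPC/Neu it alone held the repeat. The others came from an interval 76 bases from Tet3, in an exon of B230319C09Rik (8.93, Ago–RNA 6.42), and from an interval 8 bases from Spry1 (8.92, Ago–RNA 9.62).

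Without the 83 repeat-holding probes 1065 members remained, 119 of them at least 2-fold higher in NPC/Neu than in NPC, and 71 of 103 bright ones (68.9%) were at least 2-fold lower in Ago–RNA, so the stage counts and the Ago–RNA split were seen without them. What the repeat-holding probes bound was not tested.

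**Figure D5:**
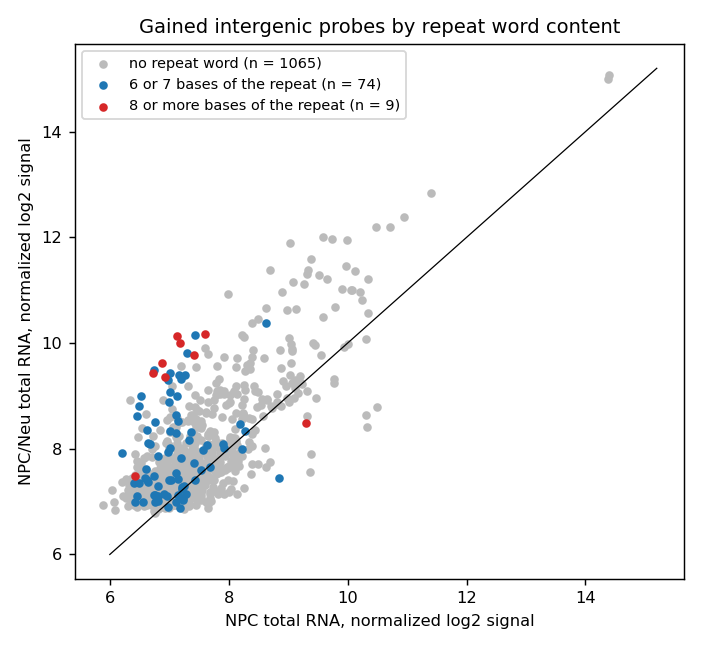
Total RNA signal in NPC/Neu against NPC (normalized log2) for each gained intergenic probe, grey for 1065 without the repeat word, blue for 6 or 7 bases and red for 8 or more. The line is equality; most red points and many blue points lie far above it at NPC signals near 7.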

How the data were processed

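Total RNA and Ago–RNA of 4 stages were hybridized to 8 one-colour Agilent arrays, and the deposited files hold spot intensities and flags from Feature Extraction 10.7.3.1 by their headers (9.1 by the submitters' processing notes, which also name limma). From the authors' mean and background intensity values, signals were corrected by normexp (offset 50), quantile normalized over the 8 arrays with limma 3.58.1 in R 4.3.3, averaged per probe and given as log2; control spots and outlier spots were left out. Steps were tested on simulated data. Intervals are on mm9, and GENCODE vM1 on NCBI37 gave genes. T1, fitted to the Ago–RNA signals as a mixture of 2 Gaussians, lies 3 SD above the lower mean. With 1 array per condition no test was run, and a 2-fold difference (log2 1) was the call. Precision is limited by the number of arrays. The members, lists and named probes (brightest overall and per pattern, extremes of E, most members, both strands, largest groups, dimmest, near markers) were chosen with earlier results of these data known. Probes in exons are named without their sequence. Alternatives were the offset, the processed intensity, separate normalization, other flags and floors, and 10 or 500 kb.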

Additional observations from a re-analysis of the deposited data

Results flagged for a closer look

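Of 241 members measured on both arrays in NPC and in NPC/Neu, 1 had E beyond 0.5 in opposite directions at the 2 stages. In the reverse-strand interval starting at position 5119300 of chromosome 18, E was 0.74 in NPC and -2.37 in NPC/Neu, a difference of -3.11. Total RNA read 6.79, 6.75, 6.93 and 9.36 from ES to NPC/Neu and Ago–RNA 7.10, 7.55, 7.66 and 6.99. The probe holds 9 bases of the hexamer repeat. With 1 array per condition the difference was not tested.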

How the results depend on the processing

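No paired analysis was possible because each condition had 1 array. The number of gained probes was 1152 with the less strict flag, 1148 without outlier spots and 878 when the ES Ago–RNA array also had to be below background, but 328 when a rise of at least 2-fold was required. With the less strict flag, members were seen from ELA on in 756 cases, from NPC on in 329, only in NPC/Neu in 46 and in ELA and NPC/Neu but not NPC in 17, and with T1 in 8, 155, 145 and 4. That flag found 737, 627, 817 and 799 members on the ES, ELA, NPC and NPC/Neu Ago–RNA arrays. With the software's processed intensities, which compress dim signals less, the counts at least 2-fold higher were larger: 719 (75th percentile scaling) and 735 (quantile) from ES to NPC/Neu, 570 and 630 from ELA to NPC, and 479 and 442 from NPC to NPC/Neu. The shares of all probes with processed intensities, here and for the counts of E below, are not given. The median E of members was -0.42 with 75th percentile scaling, where the median of all measured probes was -0.12, and -0.50 over all members, so its sign is not settled. Members with E of -1 or lower numbered 109 under that scaling, and those with E of 1 or higher 71 with processed intensities and quantile scaling. The count of bright members at least 2-fold lower in Ago–RNA was between 88 and 92 under the 5 other scalings. Leaving out probes with the repeat, and the less strict flag on the opposite strand (356 of 377), were chosen after seeing the data. The 10 and 500 kb limits gave 126 and 152 groups. For the named probes, the lower bound of the rise or E moved by more than the spot SD in 291 recomputed values and by less in 309, and none of those beyond 2-fold changed sign.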
